A study of Mus musculus with 10 samples.

Results

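Chromosome segregation in mitosis is carried out by a shared set of proteins, and 52 genes that encode them were followed here in hematopoietic stem cells (HSCs) with and without Cited2. They were taken by gene symbol from a hand-written list of mitotic kinases, checkpoint proteins, kinetochore and passenger proteins, kinesins, spindle-binding proteins, anaphase regulators and condensins, and all 52 were found among the 26146 genes of the count table. RNA had been prepared from sorted LSK CD48- CD150+ HSCs, the Lin- Sca-1+ c-Kit+ bone marrow fraction enriched for long-term stem cells, of 5 control and 5 knockout mice, with 1 sample per mouse and about 6200 cells per sample. The controls (Cited2 CTL, labelled WT) were Cited2 fl/fl mice without Cre, and the knockouts (Cited2 CKO, labelled KO) were Cited2 fl/fl;Vav-iCre mice, in which the Vav promoter drives Cre throughout the hematopoietic system from shortly after HSC emergence. All mice were C57BL/6J, carried the floxed allele and were 8 to 12 weeks old. Cre itself was present in the CKO mice only, so its presence and the loss of Cited2 cannot be told apart. The libraries are called CTL 1 to 5 and CKO 1 to 5, and the comparison asks how the mitotic genes differ between the genotypes and how they vary together among mice of the same genotype.

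Adult HSCs are mostly quiescent, and only a small fraction of them is in mitosis at any time. Transcripts for the mitotic machinery build up in late S phase and G2 and are removed as cells return to G1, so their level in bulk RNA reflects how many cells are cycling and how much each one transcribes. Many of these genes are repressed in resting cells through the DREAM complex, which binds a short element near the start site called the cell cycle genes homology region (CHR), and are activated in G2 by the B-MYB and FOXM1 factors, with NF-Y bound at CCAAT boxes nearby.

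The promoters are shown first because letters of this element were common in them. RefSeq promoter windows (GRCm38.p6, from 250 bases before to 50 bases after the start of the gene) were found for 46 of the 52 genes. The CHR was searched on both strands as TTTGAA or TTCGAA, the CCAAT box as CCAAT, and an E2F site as TTTCGCGC or TTTGGCGC. The searched letters can touch or overlap at their ends, but no motif contains another. The promoters of 6 genes follow, 150 bases each, from 120 bases before to 30 bases after the start, with the matched letters of any of the 3 motifs in capitals. Ccnb1, Bub1, Kif15 and Kif11 were among the genes with the smallest p-values between the genotypes, and Cdc20 and Kif22 had negative fold changes.

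Ccnb1 (chr13:100786457-100786606, minus strand): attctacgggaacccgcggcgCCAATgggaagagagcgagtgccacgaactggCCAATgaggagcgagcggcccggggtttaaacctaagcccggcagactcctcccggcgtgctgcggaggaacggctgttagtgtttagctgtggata

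Bub1 (chr2:127831830-127831979, minus strand): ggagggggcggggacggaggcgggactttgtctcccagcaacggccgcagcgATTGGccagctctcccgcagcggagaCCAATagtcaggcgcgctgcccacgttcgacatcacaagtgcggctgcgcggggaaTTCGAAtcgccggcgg

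Kif15 (chr9:122950961-122951110, plus strand): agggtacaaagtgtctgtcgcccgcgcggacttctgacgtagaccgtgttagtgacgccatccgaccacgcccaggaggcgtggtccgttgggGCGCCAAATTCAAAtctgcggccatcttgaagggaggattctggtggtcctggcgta

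Kif11 (chr19:37376262-37376411, plus strand): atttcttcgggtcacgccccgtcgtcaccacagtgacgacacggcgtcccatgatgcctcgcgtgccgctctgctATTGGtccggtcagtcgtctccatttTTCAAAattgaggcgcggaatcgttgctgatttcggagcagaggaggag

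Cdc20 (chr4:118437314-118437463, minus strand): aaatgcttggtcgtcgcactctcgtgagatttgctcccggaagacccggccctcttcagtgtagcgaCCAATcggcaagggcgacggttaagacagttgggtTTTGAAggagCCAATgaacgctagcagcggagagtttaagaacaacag

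Kif22 (chr7:127042391-127042540, minus strand): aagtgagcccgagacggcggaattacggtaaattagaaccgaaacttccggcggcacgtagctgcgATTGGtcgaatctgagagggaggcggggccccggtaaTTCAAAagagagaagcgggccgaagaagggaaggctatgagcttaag

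CHR letters were present in 34 of the 46 promoters (73.9%), compared with 17.2% of the 10966 genes tested for genotype that had a window. A copy starting within 50 bases of the start was found in 30 of the 46 (65.2%), against 4.56% of those 10966. CCAAT letters were present in 67.4% of the 46 and 43.1% of the tested genes, and both motifs stood together in 58.7% and 7.18%. Of 82 other mitosis genes with a window, 47.6% had CHR letters, 64.6% CCAAT letters and 35.4% both. Of 39 DNA replication genes with a window, 61.5% had CCAAT letters and 15.4% both. E2F letters were found in 3 of the 46 (6.52%), in 1.71% of the tested genes and in 35.9% of the 39 DNA replication genes. The CHR was found in 20.5% of these replication genes. In the printed windows the CHR letters of Kif15, Kif11, Cdc20 and Kif22 lie within 20 bases upstream of the start. Those of Bub1 lie downstream of it. The Ccnb1 window holds 2 CCAAT boxes and neither TTTGAA nor TTCGAA on either strand. Other forms of the CHR were not searched, so its absence from Ccnb1 is not shown. Genes with positive and genes with negative fold changes both carried these letters. A letter match is a description and was not tested as a binding site.

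Total counts per library lay between 3058690 and 4548795 in CTL (median 3984482) and between 3500215 and 4315029 in CKO (median 4218483), and 14165 genes passed the filter on low counts. Levels are given as CPM, read counts scaled by TMM to a common library size over those genes, or as RPKM where genes are compared, which also divides by gene length. Cited2 stood at 101.3, 171, 162, 222 and 160.2 CPM in CTL 1 to 5 and at 3.80, 4.21, 120.1, 5.00 and 8.30 CPM in CKO 1 to 5. The library labelled CKO 3 held Cited2 at a level within the range of the CTL libraries, so counts over the mitotic genes are given with and without it. Over all 10 libraries, edgeR gave Cited2 itself a log2 fold change of -2.51 ± 0.94 (SE) with an adjusted p of 0.328. Without CKO 3 its adjusted p in edgeR was 1.8e-06. Fold changes of single genes are from all 10 libraries unless stated. HSC genes were abundant in every library, with Kit, the stem cell factor receptor of the gate, at 473 to 674.5 CPM and Hlf at 238 to 342 CPM. Cd48, the protein that the gate excludes, was at 21.7, 17.9, 26.5, 14.4 and 27.4 CPM in CTL and 56.1, 45.3, 38.5, 44.4 and 60.8 CPM in CKO, and it was the only gene called by edgeR among 8 multipotent progenitor markers (log2 fold change 1.18 ± 0.20, SE, adjusted p = 0.0264). The call was lost with an offset for base composition and length (log2 fold change 1.03, adjusted p = 0.166). The markers' summed level was 563 to 708.5 CPM in CTL and 574 to 684 CPM in CKO. Summed levels of the erythroid, megakaryocyte, neutrophil and monocyte, lymphocyte, and mast cell and basophil lists overlapped between the genotypes, none of their markers was called by edgeR, and DESeq2 called the mast cell genes Fcer1a (10.03, 4.29, 5.88, 3.41 and 0 CPM in CTL and 53.5, 33.9, 15.4, 28.8 and 25.1 CPM in CKO) and Cpa3 (43.1, 29.0, 50.6, 29.98 and 30.4 CPM in CTL and 60.8, 59.9, 45.9, 107 and 86.2 CPM in CKO) higher in CKO. With the same offset, edgeR gave log2 fold changes of 2.60 for Fcer1a (adjusted p = 0.196) and 0.86 for Cpa3 (adjusted p = 0.510). Of the 4 tested genes of the mast cell and basophil list, 3 had a log2 fold change above 0 in edgeR without the offset. The part of the cell type markers in the results on the mitotic genes was not tested.

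None of the 52 mitotic genes was called between the genotypes by edgeR's quasi-likelihood test (Benjamini-Hochberg adjusted p under 0.05 and fold change above 20%), a call made for 0.226% of the tested genes. All 52 had passed the filter, with between 71 and 2099 counts per gene and library. At an unadjusted p under 0.05, 8 members were higher in CKO and 0 lower, compared with 5.8% of all tested genes that were higher and 7.08% that were lower. These 8 were Ccnb1, Bub1, Kif15, Smc2, Kif4, Cenpf, Mad2l1 and Kif11, with adjusted p-values from 0.0781 to 0.386 in edgeR. DESeq2's Wald test called 1 member, Ccnb1, higher (adjusted p = 0.00439), where it called 1.05% of its 13881 genes higher, and limma-voom called 0. Without the library labelled CKO 3, edgeR again called 0 members and 5 were higher at an unadjusted p under 0.05, with a median log2 fold change of 0.08 over the 52. Cenpf, Mad2l1 and Kif11 then had unadjusted p-values of 0.0509, 0.0784 and 0.118 in edgeR. Leaving out CTL 1 or CKO 2 also gave 5 members higher at an unadjusted p under 0.05, and leaving out CKO 1 gave 12.

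The fold changes were small. They are given as log2 values, CKO minus CTL, with ± their SE. They ranged from -0.27 for Kif22 to 0.52 for Kif4, their median was 0.09 against 0.01 over all tested genes, and 34 of the 52 (65.4%) were above 0, against 51.0% of all tested genes. Only Ccnb1 had every CKO library above every CTL library, a separation seen in 1.35% of tested genes. By role, the share above 0 was 3 of 4 mitotic kinases and cyclin B, 4 of 5 checkpoint genes, 9 of 12 kinetochore genes, 6 of 9 kinesins, 4 of 5 spindle-binding and cytokinesis genes and 5 of 7 condensin and chromosome genes. It was 2 of 4 for the passenger complex. In the group listed under anaphase promotion and sister cohesion it was 1 of 6, with the lowest median (-0.13). In bulk RNA, a change in the number of cycling cells and a change in RNA per cycling cell cannot be told apart.

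**Figure D1:**
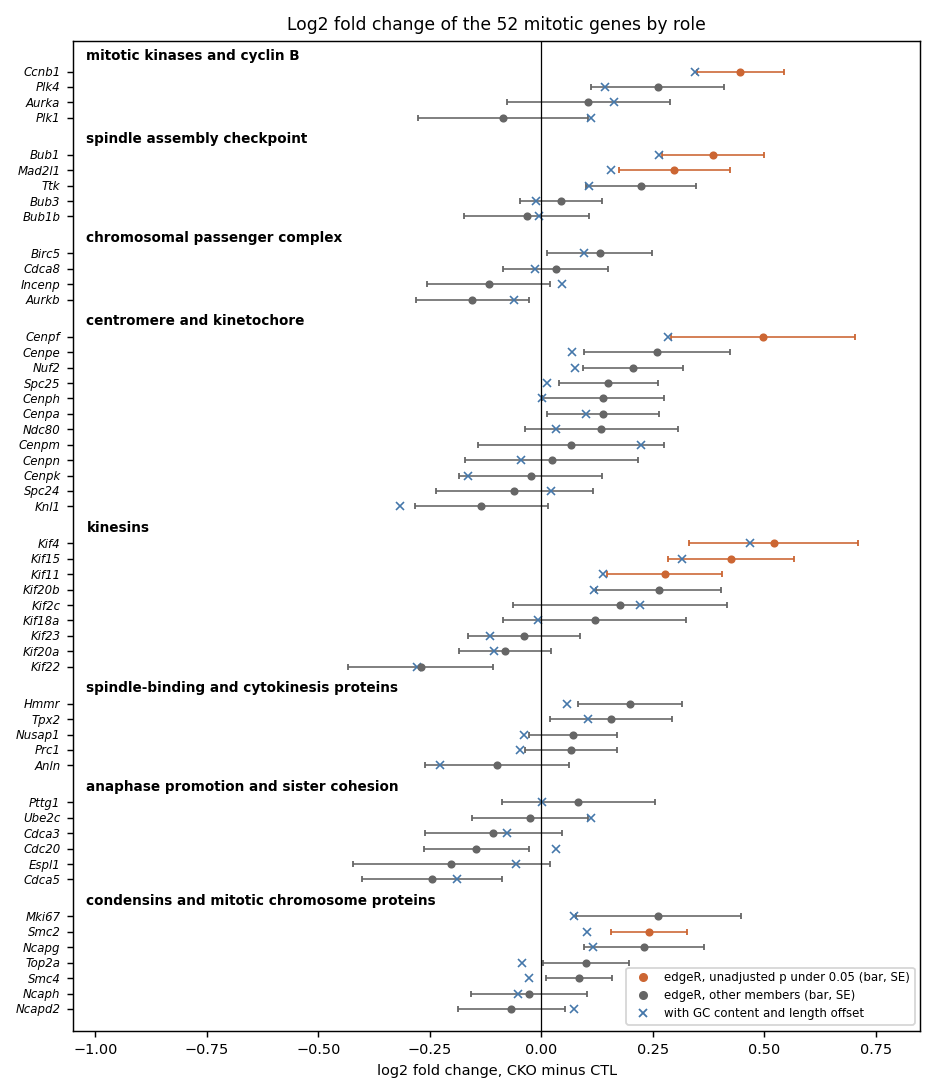
Log2 fold change (CKO minus CTL, x axis) of each of the 52 mitotic genes (y axis) grouped by role. Dots are edgeR estimates with SE bars (orange, unadjusted p under 0.05), and crosses are the estimates after adjusting each library for GC content and gene length. The 8 orange genes lie between 0.24 and 0.52, and their crosses lie nearer to 0 than their dots.

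Within the 52 genes, the sign of the fold change went with the base composition of the transcripts. Of the 37 members with a GC content below the median of tested genes (48.8%), 31 were above 0 and the median log2 fold change was 0.14, while of the 15 at or above it 3 were above 0 and the median was -0.09. All 8 members with an unadjusted p under 0.05 belonged to the former. With an offset fitted to each library for base composition and length, the median over the 52 was 0.04, the medians of these subsets were 0.06 and 0.03, and 2 members were higher at an unadjusted p under 0.05. For the 6 genes of the anaphase and cohesion group, the median GC content was 53.5%. Their median log2 fold change with the offset was -0.03. The medians of the 8 roles ran from -0.13 to 0.22 without the offset and from -0.04 to 0.15 with it. A genotype effect that tracked base composition would be removed by such an offset too.

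Cyclin B1, encoded by Ccnb1, is the regulatory subunit that activates CDK1 at entry into mitosis. Ccnb1 (chr13:100778650-100786570, minus strand in GRCm38) was at 82.6, 88.9, 72.6, 89.4 and 85.1 CPM in CTL 1 to 5 and at 95.1, 115, 116, 119.6 and 125 CPM in CKO 1 to 5. Its lowest CKO library, CKO 1, was above the highest CTL library, and the means were 83.7 ± 6.83 CPM in CTL and 114 ± 11.4 CPM in CKO (SD, n = 5 each). In edgeR the log2 fold change was 0.45 ± 0.10 (SE) with an adjusted p of 0.0781, and with the offset for GC content and length it was 0.35. A related pseudogene, Ccnb1-ps, is also in the count table, and how reads that match both were counted is not given in the sources used here, so the split between them is uncertain. Plk4, the kinase that starts centriole duplication, stood at 99.7, 91.2, 94.4, 97.5 and 101.3 CPM in CTL and 80.8, 102, 152, 144 and 101.4 CPM in CKO. CKO 1 was lowest of the 10 libraries, CKO 3 and CKO 4 were well above the CTL range and the other CKO libraries were level with its top (log2 fold change 0.26 ± 0.15, adjusted p = 0.497 by edgeR). Aurka encodes Aurora A, the kinase of spindle poles and centrosomes. It was at 48.2, 57.3, 35.3, 52.4 and 44.2 CPM in CTL and 48.5, 41.1, 44.0, 46.2 and 75.6 CPM in CKO, where CKO 5 was above all other libraries and the rest lay inside the CTL range (log2 fold change 0.11 ± 0.18). Plk1, the Polo kinase of mitotic entry and progression, averaged 46.1 ± 8.54 CPM in CTL and 43.6 ± 10.8 CPM in CKO (SD, n = 5 each), with its lowest value in CKO 1.

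The spindle assembly checkpoint holds cells in metaphase until every kinetochore is attached. Bub1, a checkpoint kinase that marks kinetochores and centromeres, was at 90.3, 88.9, 87.0, 102 and 92.1 CPM in CTL and 85.6, 130.1, 129.5, 129 and 127 CPM in CKO. CKO 2 to CKO 5 were nearly equal and above every CTL library, and CKO 1 was below every CTL library. The log2 fold change was 0.38 ± 0.11 (SE) with an adjusted p of 0.178 in edgeR. Mad2l1 encodes MAD2, which binds and blocks CDC20 while kinetochores are unattached. Its level was 92.3, 143, 135, 138 and 149.9 CPM in CTL and 132, 163, 181, 181 and 156 CPM in CKO. CKO 2 to CKO 5 were again above every CTL library, CKO 1 was inside the CTL range and CTL 1 stood apart as the lowest (log2 fold change 0.30 ± 0.12, adjusted p = 0.338 by edgeR). Ttk, the MPS1 kinase that recruits the checkpoint proteins, had 51.2, 55.3, 63.2, 66.5 and 76.1 CPM in CTL and 72.0, 83.4, 73.5, 63.2 and 73.3 CPM in CKO. Only CKO 2 was above the highest CTL library, and the log2 fold change was 0.22 ± 0.12. Bub3, the WD-repeat partner of BUB1 and BUBR1, was the most abundant checkpoint gene per length over the 10 libraries, at 88.3 ± 11.8 RPKM in CTL and 90.9 ± 7.10 RPKM in CKO, where Mad2l1 was at 76.3 ± 13.2 and 94.1 ± 11.6 RPKM (SD, n = 5 each). All its CKO libraries (174, 175, 197, 207 and 180.2 CPM) lay inside the CTL range (221, 179.6, 158, 167 and 181 CPM). Bub1b, which encodes the MAD2 partner BUBR1, averaged 109 ± 28.2 CPM in CTL and 106 ± 7.38 CPM in CKO (SD, n = 5 each), with CTL 1 highest of all libraries.

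**Figure D2:**
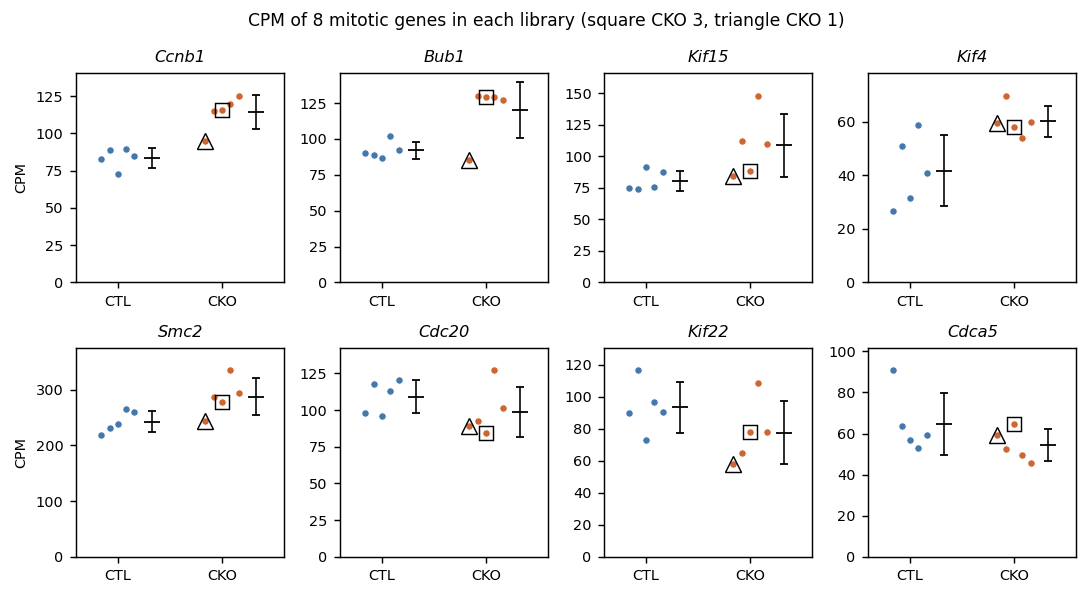
CPM (y axis, from 0) of 8 mitotic genes in the 5 CTL (blue) and 5 CKO (orange) libraries, with the mean and SD as a dash and bars. Squares mark CKO 3 and triangles CKO 1. The groups are separate for Ccnb1 and overlap for the other 7 genes, and CKO 1 is the lowest CKO library of Ccnb1, Bub1, Kif15, Smc2 and Kif22.

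The chromosomal passenger complex corrects wrong attachments and later acts at the cleavage furrow. Its kinase Aurora B, encoded by Aurkb, was at 76.2, 84.9, 62.03, 75.3 and 76.4 CPM in CTL and 56.3, 66.8, 76.6, 79.96 and 57.6 CPM in CKO. CKO 1 and CKO 5 were below every CTL library and the other 3 within the CTL range (log2 fold change -0.15 ± 0.13, adjusted p = 0.654 by edgeR). Incenp, the scaffold of the complex, was at 97.6, 79.3, 82.0, 81.7 and 114 CPM in CTL and 65.1, 92.0, 72.1, 97.3 and 92.6 CPM in CKO, where CKO 1 and CKO 3 were below every CTL library (log2 fold change -0.12 ± 0.14). Birc5, which encodes survivin, the subunit that reads the phosphorylated histone mark at centromeres, differed in the other direction. Its values were 67.5, 72.7, 72.3, 73.6 and 86.9 CPM in CTL and 66.6, 71.7, 90.3, 88.5 and 92.2 CPM in CKO, with CKO 3, CKO 4 and CKO 5 above every CTL library and CKO 1 below (log2 fold change 0.13 ± 0.12). Cdca8, the borealin subunit and the most abundant of the complex per length, was at 95.3, 89.2, 100.2, 88.2 and 94.3 CPM in CTL and 77.0, 79.2, 99.5, 117 and 105 CPM in CKO. Here CKO 1 and CKO 2 were below all CTL libraries and CKO 4 and CKO 5 above them, and the log2 fold change was 0.03 ± 0.12. No direction was shared by the 4 subunits.

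Of the 12 centromere and kinetochore genes, Cenpf had the smallest p. Its product is a large microtubule-binding protein of the outer kinetochore that appears in G2. Cenpf was at 53.2, 68.2, 77.6, 68.5 and 84.7 CPM in CTL and 59.9, 114, 104, 147 and 75.4 CPM in CKO. CKO 2, CKO 3 and CKO 4 were above every CTL library, CKO 1 and CKO 5 within the CTL range, and the log2 fold change was 0.50 ± 0.21 (SE), with an adjusted p of 0.336 in edgeR. Nuf2, a subunit of the NDC80 complex that grips microtubules, was at 98.3, 82.8, 84.1, 92.1 and 99.8 CPM in CTL and 103, 99.2, 132, 86.4 and 107 CPM in CKO. CKO 1, CKO 3 and CKO 5 exceeded every CTL library (log2 fold change 0.21 ± 0.11, adjusted p = 0.469 by edgeR). Cenpe, the kinetochore kinesin that moves chromosomes to the spindle equator, was at 78.3, 96.0, 121, 121 and 135 CPM in CTL and 94.1, 148, 171, 130.2 and 119 CPM in CKO, with CKO 2 and CKO 3 above every CTL library and a log2 fold change of 0.26 ± 0.16. Spc25, another NDC80 complex subunit and the most abundant of the group per length (70.8 ± 3.26 RPKM in CTL and 78.6 ± 13.4 in CKO), was at 103, 114, 116, 114 and 113 CPM in CTL and 94.6, 129, 153, 117 and 128 CPM in CKO. CKO 2 to CKO 5 were above every CTL library, CKO 4 by little, and CKO 1 was below them all. The remaining 8 had log2 fold changes from -0.13 for Knl1, the scaffold that recruits BUB1 to kinetochores, to 0.14 for Cenph of the inner kinetochore. Ndc80 itself averaged 83.0 ± 13.5 CPM in CTL and 91.3 ± 22.7 CPM in CKO, and Cenpa, the histone H3 variant that marks centromeres, 75.2 ± 8.69 and 83.0 ± 13.4 CPM (SD, n = 5 each).

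Kinesins supplied 3 of the 8 genes with an unadjusted p under 0.05. Kif15, a plus-end motor that helps keep spindle poles apart, was at 75.2, 73.8, 91.4, 76.0 and 87.3 CPM in CTL and 84.6, 112, 88.6, 148 and 109.9 CPM in CKO. CKO 2, CKO 4 and CKO 5 were above every CTL library and CKO 1 and CKO 3 within the CTL range, with a log2 fold change of 0.43 ± 0.14 (SE) and an adjusted p of 0.234 in edgeR. Kif11 encodes Eg5, the bipolar motor that separates the poles, and was at 143, 172, 159, 175 and 205 CPM in CTL and 152, 222, 234, 247 and 183 CPM in CKO. CKO 2, CKO 3 and CKO 4 were above every CTL library (log2 fold change 0.28 ± 0.13, adjusted p = 0.386 by edgeR). Kif4, the X-linked chromokinesin of the spindle midzone, was at 26.8, 51.0, 31.5, 58.7 and 40.7 CPM in CTL and 59.4, 69.8, 57.9, 53.8 and 59.9 CPM in CKO. Its CTL libraries spread more than its CKO libraries, CKO 1, CKO 2 and CKO 5 were above all of them, and the log2 fold change was 0.52 ± 0.19 (adjusted p = 0.275 by edgeR). Kif4 shares 15.1% of its exon bases with Pdzd11 on the opposite strand, and Kif4-ps is in the table as well, so its counts are uncertain. Kif22, a chromokinesin that pushes chromosome arms toward the equator, had the most negative fold change of the 52. It was at 89.6, 117, 72.9, 96.5 and 90.6 CPM in CTL and 58.2, 64.6, 78.0, 109 and 78.1 CPM in CKO, where CKO 1 and CKO 2 were below every CTL library and CKO 4 was exceeded only by CTL 2 (log2 fold change -0.27 ± 0.16, adjusted p = 0.519 by edgeR). Kif20a, a cytokinesis motor, averaged 113 ± 15.4 CPM in CTL and 107 ± 8.66 CPM in CKO (SD, n = 5 each) and shares 29.3% of its exon bases with Cdc23 on the opposite strand. Kif23, the motor subunit of centralspindlin, averaged 99.4 ± 18.05 and 96.9 ± 10.5 CPM, and Kif2c, which depolymerizes microtubules at centromeres, 34.3 ± 7.03 and 38.9 ± 13.6 CPM.

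No spindle-binding or cytokinesis gene passed an unadjusted p of 0.05. Hmmr, a microtubule-associated protein of the spindle poles, was at 87.3, 113, 92.6, 85.3 and 97.1 CPM in CTL and 95.3, 130.4, 119.6, 111 and 89.9 CPM in CKO, with CKO 2 and CKO 3 above every CTL library (log2 fold change 0.20 ± 0.12). Tpx2, which activates Aurora A on the spindle, was at 97.0, 133, 114, 114 and 119 CPM in CTL and 97.5, 169.7, 113, 143 and 121 CPM in CKO. CKO 2 and CKO 4 were above every CTL library and the others within the CTL range. Nusap1, which bundles microtubules near chromosomes, was the most abundant of the 5 per length and stood at 132, 134, 112, 135 and 143 CPM in CTL and 115, 146, 127, 158 and 145 CPM in CKO. CKO 2, CKO 4 and CKO 5 were just above every CTL library (log2 fold change 0.07 ± 0.10). Prc1, the midzone crosslinker, averaged 111 ± 3.77 and 117 ± 18.2 CPM, and Anln, the anillin scaffold of the contractile ring, 63.2 ± 12.2 and 59.2 ± 10.9 CPM in CTL and CKO (SD, n = 5 each).

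Of the 6 genes listed under anaphase promotion and sister cohesion, 5 had log2 fold changes below 0, and none passed the test. The heading was set by hand and does not describe the function of each gene. The 5 include Cdca3 (log2 fold change -0.11 ± 0.15, SE). Cdc20, the activator of the anaphase-promoting complex that the checkpoint blocks, was at 97.6, 118, 96.1, 113 and 121 CPM in CTL and 88.9, 92.5, 84.6, 127 and 101.2 CPM in CKO. CKO 1, CKO 2 and CKO 3 were below every CTL library and CKO 4 above them all (log2 fold change -0.15 ± 0.12, adjusted p = 0.649 by edgeR, 0.03 with the GC and length offset). Cdca5 encodes sororin, which protects cohesion until anaphase, and was at 91.0, 63.7, 56.7, 53.1 and 59.1 CPM in CTL and 59.4, 52.7, 64.8, 49.4 and 45.9 CPM in CKO. CKO 2, CKO 4 and CKO 5 were below every CTL library, CTL 1 was far above the others, and the log2 fold change was -0.24 ± 0.16. Espl1, the separase protease that cuts cohesin, was at 31.4, 39.9, 35.3, 31.7 and 41.4 CPM in CTL and 16.9, 29.4, 32.1, 47.3 and 31.1 CPM in CKO, the lowest of the 52 genes per length. CKO 4 was above every CTL library, CKO 1 far below them and CKO 2 and CKO 5 slightly below (log2 fold change -0.20 ± 0.22). Ube2c, the ubiquitin-conjugating enzyme of the anaphase-promoting complex, had every CKO library (56.1, 58.9, 52.7, 65.0 and 58.5 CPM) inside the CTL range (72.6, 58.9, 45.6, 54.8 and 64.3 CPM), and 22.8% of its exon bases overlap Tnnc2 on the opposite strand. The only positive log2 fold change was that of Pttg1, the securin inhibitor of separase, at 0.08 ± 0.17 (SE).

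Condensins compact chromosomes for mitosis, and their genes include the most abundant of the 52. Smc2, the ATPase subunit common to both condensins, was at 219.7, 231, 239, 265 and 261 CPM in CTL and 243, 287, 277, 336 and 294 CPM in CKO. CKO 2 to CKO 5 were above every CTL library and CKO 1 was within their range, with a log2 fold change of 0.24 ± 0.09 (SE) and an adjusted p of 0.266 in edgeR. With the GC and length offset its log2 fold change was 0.10. Smc4, its partner, was the most abundant of the 52 per length (107 ± 3.31 RPKM in CTL and 113 ± 12.1 in CKO, SD, n = 5 each) and stood at 438, 444, 443, 442 and 412 CPM in CTL and 389, 448, 466, 524 and 484 CPM in CKO. CKO 2 to CKO 5 were above every CTL library and CKO 1 below them all (log2 fold change 0.08 ± 0.07). Ncapg, a HEAT-repeat subunit of condensin I, was at 103, 166, 168, 150.1 and 149.9 CPM in CTL and 139.8, 150.2, 187, 183 and 205 CPM in CKO, and CKO 3, CKO 4 and CKO 5 were above every CTL library. It shares 13.4% of its exon bases with Lcorl on the opposite strand. Mki67, which encodes the Ki-67 protein that coats mitotic chromosomes and is widely used to mark cycling cells, was at 115, 169.7, 214, 194 and 254 CPM in CTL and 193, 293, 270.2, 209 and 174 CPM in CKO. Its values spread widely in both genotypes, CKO 2 and CKO 3 were above every CTL library, and the log2 fold change was 0.26 ± 0.18 (adjusted p = 0.601 by edgeR). Top2a, the topoisomerase that untangles sister chromatids, averaged 383 ± 31.2 CPM in CTL and 411 ± 60.2 CPM in CKO (SD, n = 5 each).

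Per length, the members' mean over the 10 libraries ranged from 5.08 RPKM (Espl1) to 110.0 RPKM (Smc4), with a median of 29.0 RPKM. Their summed level was 5148, 5565, 5405, 5578 and 5934 CPM in CTL 1 to 5 and 4941, 6154, 6252, 6651 and 5973 CPM in CKO 1 to 5. CKO 1 was the lowest of all 10 libraries and CKO 2 to CKO 5 were the 4 highest. The z-score of each gene's log2 CPM over the 10 libraries, averaged over the 52, was -0.92 in CKO 1 and between 0.21 and 0.81 in the other CKO libraries, and it ran from -0.47 (CTL 1 and CTL 3) to 0.31 (CTL 5) in CTL. CKO 1 was the lowest CKO library in 34 of the 52 genes, against 16.5% of all tested genes. It was the lowest of the 10 libraries in 21 of the 52, against 8.49% of all tested genes. CKO 4 was the highest CKO library in 25 members, against 23.9% of all tested genes. CTL 5 was above the mean of its genotype in 44 members, against 51.3% of all tested genes. CKO 1 held 4218483 counts, and the part of depth or library quality in its low values was not tested.

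**Figure D3:**
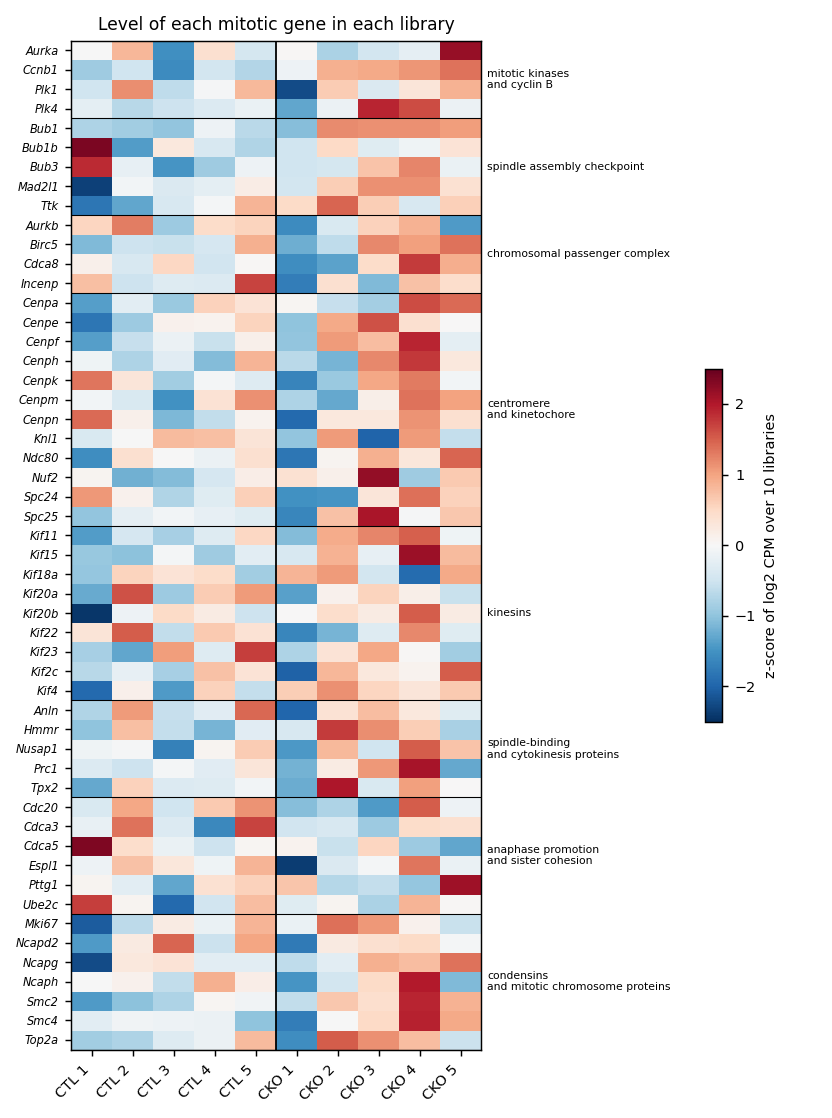
Z-score of log2 CPM over the 10 libraries (color) of each mitotic gene (rows, grouped by role) in each library (columns, CTL left and CKO right of the line). CKO 1 is mostly blue and CKO 4 mostly red, and CKO 1 is the lowest CKO library in 34 of the 52 genes.

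Within genotype, the mitotic genes varied together, but less so without CKO 1. Deviations of log2 CPM from the genotype mean were correlated between genes over the 10 libraries, with a median Pearson r of 0.32 over 1326 pairs, 77.6% of them above 0, compared with -0.00 and 49.8% over all pairs of tested genes. These are correlations across genes that share libraries and depth, and they are given as a description. The first principal component held 39.3% of the members' variance and 19.4% of that of all tested genes. Without CKO 1 the members' median r was 0.15, 62.7% of pairs were above 0 and the first component held 25.2%. All tested genes without CKO 1 had a median r of -0.00, 49.9% of pairs above 0 and a first component of 20.4%. Without CKO 3 the members' median r was 0.37. Over all 10 libraries, the median r and first component were 0.08 and 23.9% for the 100 other mitosis genes. They were 0.49 and 49.7% for the 50 DNA replication genes. The share of the first component also depends on the number of genes in a list.

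Single members followed the rest to different degrees. Espl1 (0.93), Kif11 (0.90), Anln (0.85), Smc2 (0.84) and Bub1 (0.82) had the highest r with the mean deviation of the other 51 genes over the 10 libraries. Kif18a, a motor that damps chromosome movement at the plate, had the lowest (-0.53), followed by Cdca5 (-0.40), Bub1b (-0.24) and Pttg1 (-0.18). Genes with positive and negative fold changes thus stood at both ends of this order. In the role groups, the median pairwise r was highest among spindle-binding and cytokinesis genes (0.58). It was 0.53 among condensin and mitotic chromosome genes and lowest among checkpoint genes (0.13). DNA replication genes had a mean z-score of -1.17 in CKO 1, -0.60 in CKO 2, 0.88 in CKO 3, 0.81 in CKO 4 and 0.08 in CKO 5, and between -0.18 and 0.25 in CTL. Both lists were lowest in CKO 1 among all libraries, while CKO 2 was above 0 for the mitotic and below 0 for the replication genes.

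**Figure D4:**
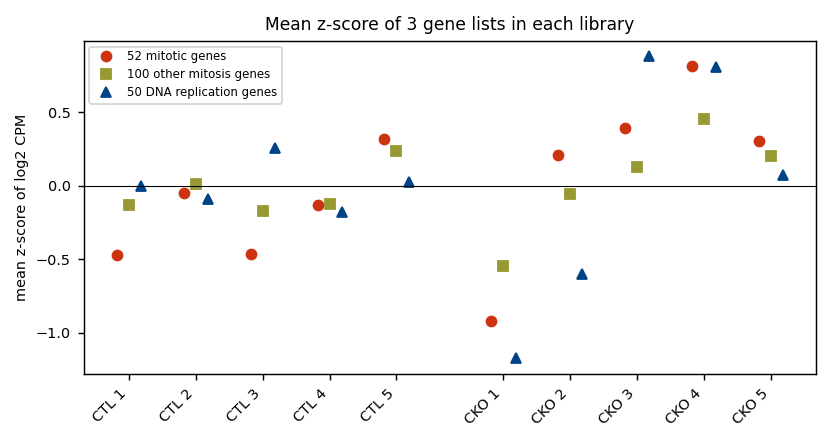
Mean z-score of log2 CPM (y axis) of the 52 mitotic genes, 100 other mitosis genes and 50 DNA replication genes in each library (x axis). All 3 lists are lowest in CKO 1, and the mitotic genes are highest in CKO 4 (0.81).

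The spread between libraries was larger in CKO for 38 of the 52 genes (73.1%). The share was 57.9% of all tested genes and 57.4% of the 8095 tested genes in the same range of mean log2 CPM. The larger spread in CKO was not particular to the 52. It was seen in 67 of the 100 other mitosis genes (67.0%) and 41 of the 50 DNA replication genes (82.0%). Over the 52 genes, the median SD of log2 CPM was 0.21 in CTL and 0.25 in CKO. All 12 kinetochore genes, all 4 kinases and cyclin, all 4 passenger genes and all 5 spindle-binding genes had the larger SD in CKO, and 1 of 5 checkpoint genes did. Plk4 had an SD of 0.06 in CTL and 0.38 in CKO, Cenpf of 0.25 in CTL and 0.51 in CKO, Espl1 of 0.18 in CTL and 0.52 in CKO and Kif2c of 0.29 in CTL and 0.57 in CKO. Kif4 went the other way (0.47 in CTL and 0.14 in CKO), as did Bub1b (0.34 in CTL and 0.10 in CKO). Without CKO 1 the SD was larger in CKO for 27 of the 52 genes and the median SD in CKO was 0.21, while without CKO 3 it was larger in 37. The median coefficient of variation of CPM was 14.6% in CTL and 17.1% in CKO, above the 5.45% and 5.07% that counting error alone would give.

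**Figure D5:**
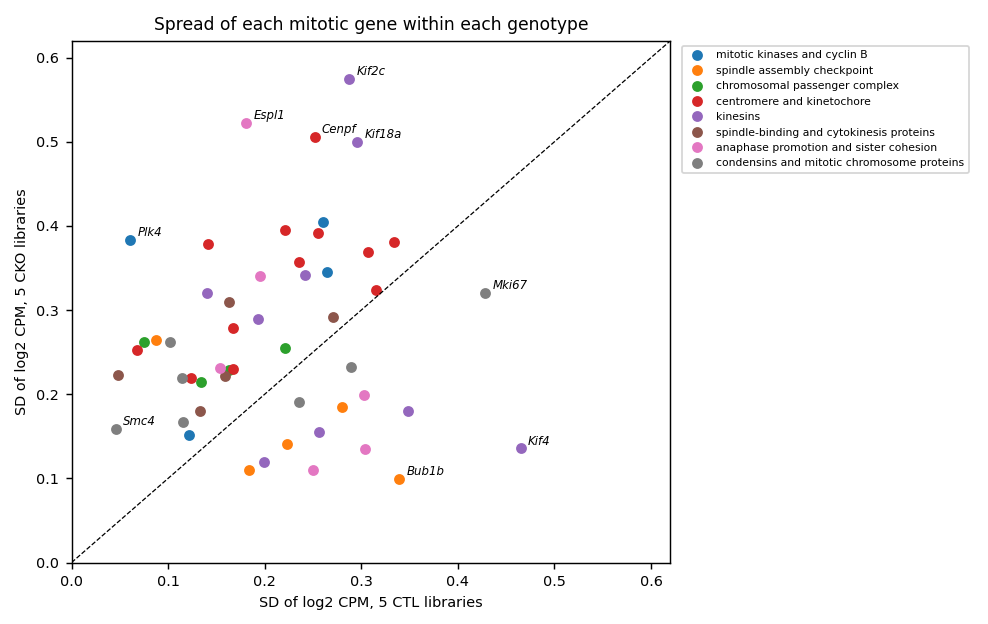
SD of log2 CPM of each mitotic gene over the 5 CTL libraries (x axis) and the 5 CKO libraries (y axis), colored by role. The dashed line marks equal SD, and 38 of the 52 genes lie above it.

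Among 11197 genes outside the 52 (mean log2 CPM 3 or more), those whose within-genotype deviations over the 10 libraries were most like the members' mean were Gas2 (r = 0.98), Asf1b (0.94), Cenpi (0.93), Dach1 (0.91) and Borcs5 (0.91). Gas2 was at 10.7, 20.2, 10.6, 16.8 and 24.1 CPM in CTL and 3.33, 19.0, 20.3, 31.2 and 12.9 CPM in CKO. Asf1b, a histone chaperone used in S phase, was at 53.8, 62.1, 47.9, 54.6 and 63.0 CPM in CTL and 45.4, 61.4, 70.9, 74.1 and 71.2 CPM in CKO, and Cenpi, an inner kinetochore gene outside the list of 52, had 74.9, 88.2, 79.96, 76.5 and 93.2 CPM in CTL and 43.7, 64.8, 76.6, 74.1 and 63.6 CPM in CKO. All 3 had their lowest value in CKO 1. These genes were picked as the highest of the 11197, so their r is a description.

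Neighboring gene lists gave a frame for the fold changes. None of the 100 other mitosis genes was called by edgeR, 8 were higher and 4 lower in CKO at an unadjusted p under 0.05, and 53 had a log2 fold change above 0 (median 0.02). Their smallest p-values were those of Zwilch, a kinetochore gene of the checkpoint pathway (51.8, 55.1, 51.4, 56.5 and 59.1 CPM in CTL and 57.0, 66.5, 85.6, 75.8 and 71.4 CPM in CKO, log2 fold change 0.38 ± 0.12), Mad1l1, which anchors MAD2 at kinetochores (log2 fold change -0.32 ± 0.11), and Fbxo5, an inhibitor of the anaphase-promoting complex (log2 fold change 0.27 ± 0.10). Their adjusted p-values in edgeR were 0.215, 0.246 and 0.265. Among 50 DNA replication genes, 0 were called by edgeR, 4 were higher and 1 lower at an unadjusted p under 0.05, and 22 were above 0 (median -0.02). Gins1 and Gins2, subunits of the replicative helicase, had log2 fold changes of 0.44 ± 0.17 and -0.40 ± 0.16, and Tyms, which makes thymidylate, of 0.27 ± 0.11. Among 24 HSC quiescence and identity genes, 3 were higher and 5 lower at an unadjusted p under 0.05 and 8 were above 0 (median -0.13). Ccnd1, the cyclin that drives exit from G1, was the 1 gene called by edgeR. It was at 75.9, 70.7, 58.8, 80.9 and 61.0 CPM in CTL and 94.8, 100.2, 104, 140.2 and 122 CPM in CKO, without overlap (log2 fold change 0.69 ± 0.13, adjusted p = 0.0456 by edgeR). The call was lost without the library labelled CKO 3 (adjusted p = 0.0521 by edgeR) and with the offset for base composition and length (log2 fold change 0.74, adjusted p = 0.162).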

How the data were processed

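RNA-seq of sorted HSCs was compared between 5 Cited2 CTL and 5 Cited2 CKO mice, grouped by their labels. Single-ended reads had been mapped by the authors with HISAT2 v.2.1.0 (GRCm38) and summarized by Rsubread v.2.0.1. The deposited table holds raw counts by gene symbol together with gene lengths. The annotation, the use of strand, the handling of reads that match several genes and any removal of duplicates are not given in the sources used here, nor is a batch or date. Counts per library limit the precision of each value. The p-values test the genotype difference against the spread between libraries within genotype.

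Counts were analyzed in R 4.3.3 with edgeR 4.0.16 (filterByExpr, TMM, robust quasi-likelihood F test, Benjamini-Hochberg adjustment over 14165 genes, called at an adjusted p under 0.05 with a fold change above 20%). The fit gave a common biological coefficient of variation of 25.3%. A prior count of 2 was used for log2 CPM. RPKM used the deposited gene length. GC content came from GENCODE transcripts of GRCm38 (13928 of the tested genes had a value) and promoters from RefSeq (GRCm38.p6). Alternatives were DESeq2 1.42.0, limma-voom (limma 3.58.1), DESeq2 size factors, other filters, a replicate block, the GC and length offset (loess, span 50%), and each library left out. The scripts were tested on simulated data.

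The 52 genes and all other lists were chosen with earlier results of these data known. Of the marker lists, 1 gene and the summed level of the HSC list are not reported here. Values in every library were given for the 3 genes of each role with the smallest p and the one with the highest mean RPKM over the 10 libraries. Of other lists the called genes or otherwise the 3 with the smallest p were named, as were the 5 genes most like the members, some of them with levels. Kit, Hlf, Fcer1a, Cpa3 and the other members named were added after their values were seen. No 2 libraries agreed within sampling noise, so each counted as 1 sample.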

Additional observations from a re-analysis of the deposited data

Results flagged for a closer look

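In 10 of the 110 groups of 5 libraries examined (the CPM of the 52 genes and of Cited2, and the summed CPM and mean z-score of the 52, in each genotype), 1 library stood apart from the others by Dixon's criterion for 5 values (0.71), which chance alone meets in about 1 of 20 groups. Cited2 in CKO 3 was the most distant, at 120.1 CPM against 3.80 to 8.30 CPM in the other CKO libraries. CTL 1 stood apart in 4 members, below the other CTL libraries for Mad2l1 (92.3 CPM against 135 to 149.9 CPM), Spc25 (103 CPM against 113 to 116 CPM) and Ncapg (103 CPM against 149.9 to 168 CPM), and above them for Cdca5 (91.0 CPM against 53.1 to 63.7 CPM). CKO 1 stood apart with low values of Bub1 (85.6 CPM against 127 to 130.1 CPM) and Ncapd2, a condensin I subunit (99.4 CPM against 127 to 137 CPM). High values were seen for Aurka in CKO 5 (75.6 CPM against 41.1 to 48.5 CPM) and Kif20b, a cytokinesis kinesin, in CKO 4 (213 CPM against 155 to 170.0 CPM). Smc4 was low in CTL 5 (412 CPM against 438 to 444 CPM). CTL 1 was the library with the fewest counts (3058690).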

How the results depend on the processing

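No member was called by edgeR under any of its alternatives or by limma-voom, and DESeq2 called 1, Ccnb1. The count of members higher in CKO at an unadjusted p under 0.05 (8) was 2 with the GC and length offset, with or without the replicate block, 6 with limma-voom and 5 to 12 when single libraries were left out. The count of those lower (0) was 1 with the offset and replicate block, 1 without CKO 3 and with the replicate block, and 0 to 2 when single libraries were left out, with 2 without CKO 4. The 2 alternatives that left out CKO 3 with the block, or CKO 1 and CKO 3 together, were chosen after the data were seen. The median log2 fold change of the members (0.09) stayed above 0 throughout and was 0.04 to 0.14 when single libraries were left out. The median SD in CKO (0.25) was 0.21 without CKO 1 and 0.21 to 0.26 over all libraries left out in turn, and the median pairwise r was 0.15 to 0.37. Of 1040 values for single members under 20 alternatives, 80 had the other sign, none of them called, and 25 members kept one sign throughout, 19 of them positive. Of these values, 2 moved by more than 1 SD between replicates, those of Smc2 and Smc4, to 0.07 and -0.06 with the offset and replicate block.

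CTL and CKO libraries share numbers from 1 to 5, but the deviations of same-numbered libraries correlated at 0.01, -0.09, 0.21, 0.00 and 0.19, so the numbers were not treated as pairs. The replicate block gave 10 members higher at an unadjusted p under 0.05, a median of 0.08 and 0 calls. Median counting errors of the members were 5.45% in CTL and 5.07% in CKO, below the median coefficients of variation of 14.6% and 17.1%. The counting error takes each read as independent. With 1 library per mouse, differences between mice and those from sorting and library preparation cannot be told apart.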
